A study of Sus scrofa with 15 samples.

Results

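Small leucine-rich proteoglycans are secreted proteins built around a curved chain of leucine-rich repeats, and most of them carry glycosaminoglycan chains. They bind fibrillar collagens and set the diameter and spacing of the fibrils, and several of them also bind growth factors of the transforming growth factor beta family. In fat they are made mainly by fibroblasts and preadipocytes of the connective tissue septa and of the stroma between adipocytes. The 10 genes described here are KERA, LUM, DCN, BGN, FMOD, OGN, ASPN, PRELP, EPYC and OMD. They were chosen by gene symbol, with earlier results of these data known, and all 10 could be matched among the 30477 genes counted in each library. KERA encodes keratocan, a keratan sulfate proteoglycan best known from the cornea, where it is needed for transparency.

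RNA of backfat, the subcutaneous fat of the back, was sequenced from 15 Iberian pigs, with 1 library per pig and 5 pigs per diet. Control pigs (C) ate a restricted compound feed, DOP pigs ate a restricted compound feed that contained dry olive pulp, and WCOC pigs ate a restricted compound feed without by-product together with a freely offered silage of wet crude olive cake and barley straw. The control feed was given at a higher share of free energy intake than the compound feeds of DOP and WCOC. Diet and feeding level thus cannot be told apart in the comparisons with C. The pigs were of 1 breed and were fed these diets over the growing period, to about a year of age, before the fat was taken by biopsy. Each diet was given in 1 pen, so diet and pen cannot be told apart, and the pigs were selected on the amount and quality of their RNA. The total of counts on genes ran from 22373715 to 34745218 per library. The fat cell genes ADIPOQ and PLIN1 were high in every library, with at least 3087 and 2115 CPM (counts scaled to a fixed library total). Skeletal muscle RNA was uneven, at 42.6 to 3152 CPM over the muscle list in C, 31.0 to 40652 in DOP and 16.5 to 627 in WCOC. By the run identifiers, DOP replicates 1 to 5 and C replicate 5 were sequenced on 1 flow cell (run B). The other 9 libraries were sequenced on another (run A). WCOC vs. DOP therefore cannot be told apart from the flow cell. In DOP vs. C, C replicate 5 alone separates diet from flow cell.

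The family sits in gene clusters on the pig genome (build Sscrofa11.1, RefSeq annotation). On chromosome 5, DCN (ENSSSCG00000000915, 91678601 to 91713925), LUM (ENSSSCG00000000916, 91748871 to 91756381), KERA (ENSSSCG00000000917, 91794317 to 91802362) and EPYC (ENSSSCG00000000918, 91837672 to 91877779) follow each other on the plus strand within 199 kb. On chromosome 3, OGN (ENSSSCG00000034607, 42116521 to 42135940), OMD (ENSSSCG00000008073, 42142603 to 42155032) and ASPN (ENSSSCG00000008072, 42165553 to 42192902) lie on the minus strand within 76.4 kb. These 3 genes lie inside the span of CENPP, a centromere protein gene on the opposite strand, so their counts are uncertain as far as the counting ignored strand. On chromosome 9, FMOD (ENSSSCG00000015270, 64062995 to 64073853, minus strand) and PRELP (ENSSSCG00000015271, 64190978 to 64207008, plus strand) are neighbours, and PRELP overlaps the noncoding gene LOC106507842 on the other strand. BGN (ENSSSCG00000012766) stands alone on chromosome X from 124282048 to 124295450, plus strand. The KERA gene model has 6 exons, a transcript of 2586 bases and a protein of 351 residues.

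The 200 bases before the annotated start were read for every member, and those of 4 members are shown because they are 2 pairs of neighbours whose ratios are compared between diets below: KERA (chr5:91794117-91794316, plus strand) with LUM (chr5:91748671-91748870, plus strand), and ASPN (chr3:42192903-42193102, minus strand) with OMD (chr3:42155033-42155232, minus strand). Each is written 5′ to 3′ along its gene, and capitals mark matches to the motifs searched.
KERA: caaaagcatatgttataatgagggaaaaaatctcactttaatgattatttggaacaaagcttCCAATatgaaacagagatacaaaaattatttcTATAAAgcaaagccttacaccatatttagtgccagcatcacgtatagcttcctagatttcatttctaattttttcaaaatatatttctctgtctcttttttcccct
LUM: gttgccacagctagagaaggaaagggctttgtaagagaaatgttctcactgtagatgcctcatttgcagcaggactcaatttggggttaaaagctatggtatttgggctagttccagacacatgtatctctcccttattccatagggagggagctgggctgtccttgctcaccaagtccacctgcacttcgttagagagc
ASPN: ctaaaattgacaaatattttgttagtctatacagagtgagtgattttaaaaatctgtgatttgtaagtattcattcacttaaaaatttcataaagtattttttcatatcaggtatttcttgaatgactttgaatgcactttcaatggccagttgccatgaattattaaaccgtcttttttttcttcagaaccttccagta
OMD: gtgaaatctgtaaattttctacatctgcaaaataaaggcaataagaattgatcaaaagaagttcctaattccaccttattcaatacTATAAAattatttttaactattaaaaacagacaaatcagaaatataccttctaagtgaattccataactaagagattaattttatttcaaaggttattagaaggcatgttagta
These 4 motifs were searched on both strands. The TATA box was searched as the letters TATAAA. The box bound by NF-Y was searched as CCAAT. The box bound by Sp1 was searched as GGGCGG. The site bound by AP-1 was searched as TGANTCA. KERA held TATAAA, 106 bases before its start, and CCAAT, 138 bases before it. OMD held TATAAA, 114 bases before its start, and the windows of LUM and ASPN held none of the motifs. Of the other members, FMOD held CCAAT and BGN held GGGCGG. Over the windows of 19534 protein-coding genes, 7.68% held TATAAA, 27.7% held CCAAT, 43.8% held GGGCGG and 4.203% held TGANTCA. The GC content of the members' windows ran from 25% (OMD) to 65% (BGN), against a median of 59% over all genes, and 9 of the 10 members lay below that median. These matches describe the letters in the windows, which depend on where the annotation puts the start of each gene.

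In backfat, DCN (decorin, which decorates the surface of collagen fibrils) was the most abundant member per length. Its level was 476 ± 149 CPM per kb of exon (SD over the 15 pigs), followed by LUM (lumican, a keratan sulfate proteoglycan) at 161 ± 64.3, BGN (biglycan, a close relative of decorin) at 86.9 ± 24.8 and OGN (osteoglycin, also called mimecan) at 80.8 ± 10.8 CPM per kb. A lower tier held ASPN (asporin) at 16.8 ± 6.69, FMOD (fibromodulin) at 14.96 ± 5.65 and PRELP (prolargin) at 13.6 ± 4.03 CPM per kb. KERA followed at 7.65 ± 3.10 and OMD (osteomodulin, known from bone) at 6.25 ± 1.30 CPM per kb. DCN stood above LUM, and LUM above BGN, in 15 of 15 libraries. BGN stood above OGN, and KERA above OMD, in only 8 of 15, so these neighbours in the order were not separated. OGN varied least among pigs of 1 diet, with a coefficient of variation of 9.15% in C against 33.1% for KERA. EPYC (epiphycan, a cartilage proteoglycan) was close to absent, with 5 counts in all 5 C libraries together, 7 in DOP and 3 in WCOC. It was the 1 member of 10 that did not pass the filter on low counts and was not tested.

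The levels of KERA were low but well measured, at 286 to 1117 counts per library. In C, KERA stood at 26.9, 24.9, 25.5, 13.2 and 37.0 CPM in replicates 1 to 5. In DOP it stood at 29.5, 12.5, 18.2, 24.5 and 10.2 CPM. In WCOC it stood at 9.36, 20.03, 13.8, 13.8 and 17.4 CPM. All 5 WCOC pigs lay below C replicates 1, 2, 3 and 5, while C replicate 4 lay below 4 of them, and all 3 diets overlapped. The means were 25.5 ± 8.44 CPM in C, 18.97 ± 8.06 in DOP and 14.9 ± 4.05 in WCOC (SD, n = 5 each).

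**Figure D1:**
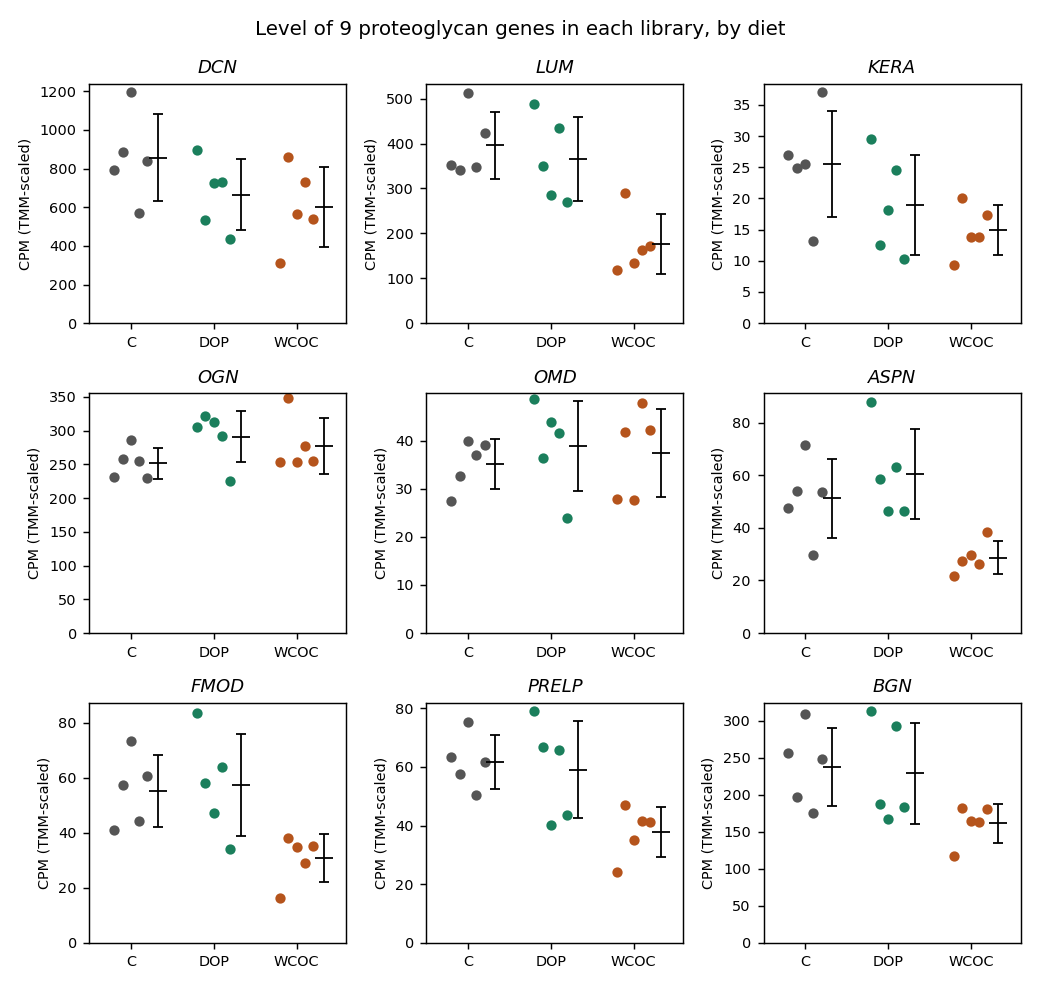
Level of 9 members in each library (vertical axes, TMM-scaled CPM from 0, a scale of its own for each gene) in C, DOP and WCOC. Points are pigs, and the bar with whiskers beside them is the mean ± SD of the 5 pigs. LUM, FMOD and PRELP in WCOC lie below every C library, while OGN and OMD in WCOC overlap C.

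The comparison of WCOC with C asks what the diet with silage of crude olive cake does to the fat, and here 4 of the 9 tested members were lower in WCOC and 0 were higher. Differentially expressed genes (DEGs) are those whose log2 fold change (log2FC) was 0.58 or more in size and whose adjusted p was under 0.05, by edgeR's quasi-likelihood test, two-sided and adjusted over all 14918 tested genes by Benjamini-Hochberg. Of all tested genes, 6.25% were DEGs in WCOC vs. C and 3.93% were DEGs with a lower level in WCOC. The members, and the gene lists used below, were chosen with earlier results of these data known. The study had already named LUM, ASPN, COL1A1 and COL1A2 among its genes for this comparison. Counts set beside the share of all genes are thus a description and no blind test. The median log2FC over the 9 members was -0.71, against 0.00 over all tested genes, and 7 of the 9 values were negative. In bulk tissue, fewer cells of a type and less RNA per cell cannot be told apart.

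LUM, which keeps collagen fibrils thin and evenly spaced, had the largest fall of the 4. Its level was 352, 341, 513, 348 and 425 CPM in C and 119, 289, 135, 164 and 173 CPM in WCOC. The lowest C library lay above the highest WCOC library, so the diets did not overlap. The log2FC was -1.17 (SE 0.23), a 2.25-fold lower level, at an edgeR adjusted p of 0.00808.

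FMOD, a collagen-binding proteoglycan close to LUM in sequence, stood at 41.0, 57.4, 73.3, 44.3 and 60.5 CPM in C and at 16.1, 38.1, 35.0, 29.1 and 35.3 CPM in WCOC. The ranges did not overlap, and the log2FC was -0.85 (SE 0.25, edgeR adjusted p = 0.0457). PRELP, which anchors basement membranes to the connective tissue around them, stood at 63.2, 57.7, 75.5, 50.3 and 61.6 CPM in C and at 24.3, 46.9, 35.0, 41.6 and 41.3 CPM in WCOC. Here too every WCOC pig lay below every C pig. The log2FC of PRELP was -0.71 (SE 0.20, edgeR adjusted p = 0.0364). Values of C and WCOC did not overlap for 3 of the 9 members, against 7.62% of all tested genes.

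ASPN, a relative of decorin that binds collagen and calcium, stood at 47.5, 54.1, 71.3, 29.6 and 53.5 CPM in C and at 21.8, 27.4, 29.5, 26.3 and 38.5 CPM in WCOC. WCOC replicate 5 lay above C replicate 4, and the other 4 WCOC pigs lay below all of C. The log2FC was -0.83 (SE 0.22, edgeR adjusted p = 0.0306).

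KERA did not pass the threshold in WCOC vs. C. Its log2FC was -0.78 (SE 0.30, 95% interval -1.42 to -0.13), which is a 1.71-fold lower mean, with an unadjusted p of 0.0219 and an edgeR adjusted p of 0.120. DESeq2, on the same counts, gave -0.78 with an adjusted p of 0.0589. C replicate 5, the 1 control of run B, had the highest KERA level, and within run A alone the log2FC was -0.61 (edgeR adjusted p = 0.160).

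BGN had a log2FC of -0.56 (SE 0.20, edgeR adjusted p = 0.0929). DCN had one of -0.51 (SE 0.26, edgeR adjusted p = 0.229), from 855 ± 225 CPM in C to 601 ± 207 CPM in WCOC. Neither passed the threshold, and for both the diets overlapped. OGN and OMD had values near 0, at 0.14 (95% interval -0.11 to 0.39) and 0.09 (95% interval -0.32 to 0.50). These intervals leave out a fall of the size fitted for LUM.

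**Figure D2:**
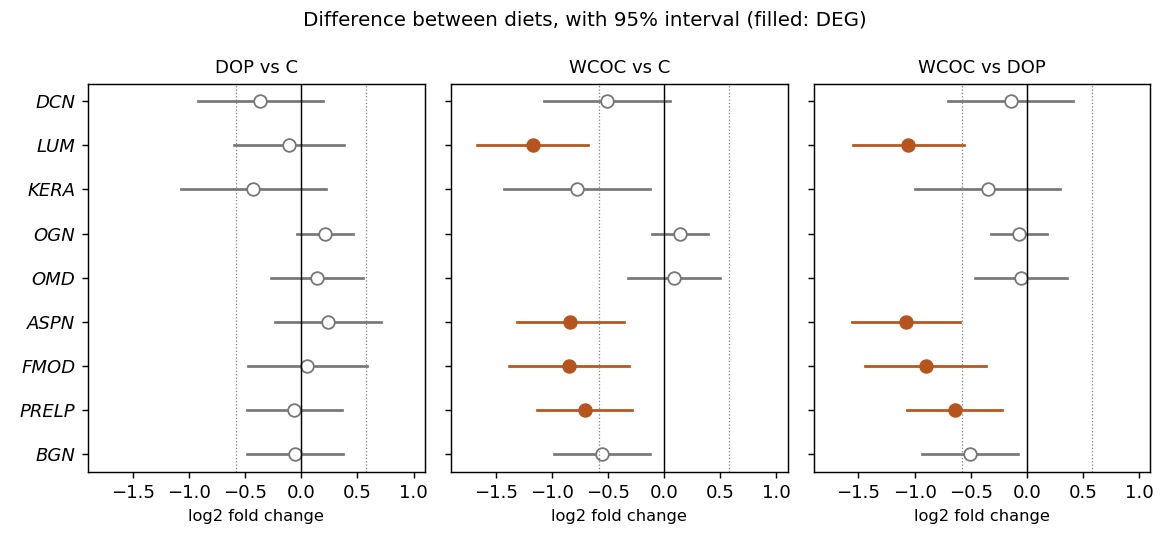
Log2 fold change (horizontal axis) of the 9 tested members (rows, in the order of their gene clusters) in the 3 comparisons of diets (panels), with the 95% interval as a line; filled points are DEGs and dotted lines mark -0.58 and 0.58. LUM, ASPN, FMOD and PRELP are filled in both comparisons of WCOC, and no point is filled in DOP vs. C.

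The number of members called in WCOC vs. C depended on the libraries and terms in the fit. LUM was a DEG in each of the 10 fits that left out 1 of the libraries compared, with a log2FC between -1.43 and -1.06, while ASPN was one in 4 of them, PRELP in 3 and FMOD in 2. The count fell from 4 to 1 without C replicate 3 or 5 or WCOC replicate 1, 3 or 4, and to 2 without C replicate 2 or WCOC replicate 5. LUM was the 1 member called within run A alone (-1.15, edgeR adjusted p = 0.0299), with the flow cell as a term (-1.14, edgeR adjusted p = 0.0187) and with the fibroblast list as a term (-0.72, edgeR adjusted p = 0.0462). With the macrophage list as a term 0 members were called (LUM -0.49, edgeR adjusted p = 0.372), and likewise in lane 2 of run A alone, which held 4 C and 3 WCOC libraries (LUM -1.11, edgeR adjusted p = 0.145).

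The comparison of DOP with C asks the same of dry olive pulp, and here 0 of the 9 members were DEGs, against 0.764% of all tested genes in edgeR. DESeq2 also called 0 of the 9, against 3.32% of all tested genes. At an unadjusted p under 0.05 in edgeR the count was 0 as well, against 17.6% of all tested genes. KERA had the value farthest from 0, -0.43 (SE 0.30, 95% interval -1.07 to 0.22, edgeR adjusted p = 0.499), followed by DCN at -0.36 (SE 0.26, edgeR adjusted p = 0.506). LUM had a log2FC of -0.11 (95% interval -0.60 to 0.38) and ASPN one of 0.24 (95% interval -0.23 to 0.71). The median over the members was -0.05, with 5 values below 0 and 4 above. For 0 members did the ranges of DOP and C stay apart, against 3.47% of all genes. DOP replicate 5, with 40652 CPM over the muscle list, was the lowest DOP library for KERA, LUM, DCN, FMOD, OGN and OMD, and with the muscle list as a term KERA stood at -0.30 (edgeR adjusted p = 0.682). All DOP libraries were in run B, with C replicate 5 as the only control there, so diet and flow cell are hardly separable in DOP vs. C. With the flow cell as a term, KERA stood at -0.96. The comparisons of DOP and WCOC with C share the same 5 control pigs.

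WCOC vs. DOP compares the olive diets directly, and the same 4 members were lower in WCOC, against 7.76% of all genes called and 5.11% called with a lower level. ASPN stood at 87.8, 58.5, 46.4, 63.3 and 46.6 CPM in DOP, above all 5 WCOC pigs, with a log2FC of -1.08 (SE 0.22, edgeR adjusted p = 0.00965). It was the 1 member of 9 whose values did not overlap, against 8.9% of all genes. LUM stood at 489, 350, 286, 435 and 271 CPM in DOP, where DOP replicates 3 and 5 lay just below WCOC replicate 2. Its log2FC was -1.06 (SE 0.23, edgeR adjusted p = 0.0124). FMOD had a log2FC of -0.90 (SE 0.25, edgeR adjusted p = 0.0331) and PRELP one of -0.64 (SE 0.20, edgeR adjusted p = 0.0459). KERA differed by -0.35 (SE 0.30, 95% interval -0.99 to 0.30, edgeR adjusted p = 0.496). With the flow cell as a term, for which C replicate 5 is the only link between the runs, 0 members and 1 gene of all were called in this comparison. LUM and ASPN were DEGs in each of the 10 fits that left out 1 of the libraries compared, and the count fell from 4 to 2 without DOP replicate 1, 2 or 4 or WCOC replicate 1, 3, 4 or 5.

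The ratio of LUM to its neighbour DCN was lower in WCOC than in either other diet. The ratios were chosen after seeing the data, and the p-values below do not allow for that choice. They are thus no separate test of the fall of LUM. Differences of WCOC from DOP cannot be told apart from the flow cell. The log2 ratio of LUM to DCN, 2 genes that follow each other on chromosome 5, averaged -1.09 ± 0.26 among C pigs, -0.85 ± 0.29 among DOP pigs and -1.77 ± 0.33 among WCOC pigs (SD). The 5 WCOC values, from -2.15 to -1.40, lay below all 5 C values (-1.38 to -0.71) and all 5 DOP values (-1.35 to -0.61). The difference of WCOC from C was -0.68 (exact permutation test, two-sided, p = 0.00794, adjusted p = 0.0397 over 15 ratios tested) and that from DOP was -0.91 with the same p-values, which are the smallest that 5 against 5 pigs allow. The log2 ratio of KERA to LUM averaged -4.01 ± 0.50 among C pigs, -4.34 ± 0.39 among DOP pigs and -3.53 ± 0.24 among WCOC pigs. It was 0.81 higher in WCOC than in DOP (exact permutation test, adjusted p = 0.0397) and 0.48 higher than in C (exact permutation test, p = 0.0952, adjusted p = 0.238). On chromosome 3, the log2 ratio of ASPN to OMD was 0.87 lower in WCOC than in C, at 0.50 ± 0.48 in C and -0.38 ± 0.38 in WCOC (exact permutation test, p = 0.0238, adjusted p = 0.0714). OMD to OGN and PRELP to FMOD differed by at most 0.27 between diets, and 0 of those 6 differences passed the threshold.

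Within a diet, pigs with more KERA also had more of most other members. How many of all genes go with KERA to this degree was not counted, so the relations cannot be called particular to the family. The 5 closest genes outside it, named below, had a higher r with KERA than any member. Levels were taken as log2 CPM, the mean of each diet was removed, and each of the 8 relations with KERA was tested by all permutations within diets. Pearson's r was 0.78 with DCN (exact permutation p = 0.00145, adjusted p = 0.0116 over the 8 relations) and Spearman's rho was 0.67 (exact permutation p = 0.0140, adjusted p = 0.0223). With BGN r was 0.79 (exact permutation p = 0.00442, adjusted p = 0.0118) and rho was 0.79 (exact permutation p = 0.00285, adjusted p = 0.0146). With LUM r was 0.69 (exact permutation p = 0.00747, adjusted p = 0.0131) and rho was 0.76 (exact permutation p = 0.00366, adjusted p = 0.0146). FMOD (r 0.73), ASPN (r 0.73), PRELP (r 0.65) and OMD (r 0.57) also passed at an adjusted p under 0.05 on Pearson's r, and OGN did not (r 0.32, exact permutation p = 0.293). OMD did not pass on the ranks (rho 0.54, exact permutation adjusted p = 0.0592). Without C replicate 4 and DOP replicate 5, the 2 libraries farthest from the median of KERA within their diets, 0 of 8 relations passed over the remaining 13 (lowest exact permutation adjusted p = 0.0594). There r was 0.69 with LUM, 0.74 with BGN, 0.67 with DCN, 0.66 with FMOD and 0.58 with OMD, while it was 0.52 with ASPN, 0.54 with PRELP and 0.09 with OGN. The calls were thus lost without those libraries. Only with LUM and OMD, at 0.69 and 0.57 over all 15, did r not fall. With every other member it fell, as from 0.73 to 0.52 with ASPN and from 0.78 to 0.67 with DCN. Over the 9 libraries of run A alone, BGN (r 0.81) and PRELP (r 0.84) passed on Pearson's r. Neither passed there on the ranks (exact permutation adjusted p = 0.126 for both). Run B holds 5 DOP libraries and 1 C library, too few for a relation within diets.

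Over all 36 pairs of members, r within diets was above 0 in each, from 0.21 (OGN with ASPN) to 0.85, with a median of 0.69. Libraries are shared by all pairs, so the pairs are not independent. No such r was computed over pairs of all genes, so the values cannot be called particular to the family. The genes outside the family whose levels went most closely with KERA, of 11124 genes with a symbol and a mean of at least 1 CPM, were WLS (r 0.90), PROCR (r 0.90), TMEM45A (r 0.89), ARHGEF25 (r 0.88) and LYVE1 (r 0.88), all over 15 libraries with diet means removed. WLS carries Wnt proteins to the cell surface, PROCR is the receptor of protein C, and LYVE1 is a hyaluronan receptor of lymphatic vessels and some macrophages. None of these 5 was a DEG, with log2FC in WCOC vs. C from -0.79 (LYVE1) to -0.03 (TMEM45A).

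**Figure D3:**
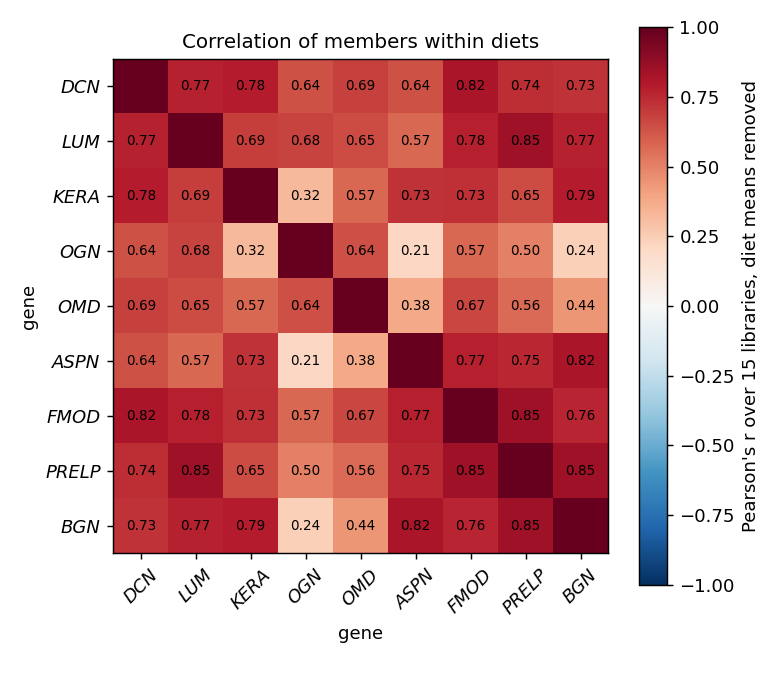
Pearson's r between the log2 CPM of each pair of the 9 tested members (rows and columns, ordered by gene cluster) over 15 libraries with the mean of each diet removed; the colour runs from -1 (blue) to 1 (red). All 36 pairs are above 0, and OGN with ASPN, BGN and KERA shows the palest cells.

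Some of the collagens that the proteoglycans bind were lower in WCOC than in C as well. Of all tested genes, 6.25% were called in this comparison and 3.93% were called with a lower level. Of 10 tested genes of the collagen list, 3 fell and 0 rose: COL1A1 (log2FC -0.93) and COL1A2 (-0.91), the chains of type I collagen, and COL14A1 (-1.08), a fibril-associated collagen. Their edgeR adjusted p-values were 0.0483, 0.0362 and 0.0312, close to the threshold, and the values of C and WCOC overlapped for each of these genes. The list had a median of -0.49 and 9 of 10 negative values. Among 7 tested other proteoglycans of the family, TSKU (tsukushi) fell, with a log2FC of -0.89. Of 8 tested proteases that cut matrix proteins, the serine protease HTRA1 fell (-0.63). In DOP vs. C, where 0.764% of all tested genes were called, the gelatinase MMP9 fell (-3.96). These single calls do not describe their lists as a whole.

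Of 26 tested genes that make the sugar chains, 1 rose in WCOC vs. C and 0 fell, against 6.25% of all tested genes called in this comparison. That gene was CHST3, a chondroitin 6-sulfotransferase, from 61.0 ± 7.26 CPM in C to 103 ± 20.7 CPM in WCOC (log2FC 0.75, edgeR adjusted p = 0.00912). The list's median was 0.10. In WCOC vs. DOP, CHST3 rose again (0.83), with CHST13 (1.63), a chondroitin 4-sulfotransferase, and 0 genes of the list fell, which is close to the 7.76% of all tested genes called there. Of 16 tested growth factors and receptors that members bind, 0 were DEGs in any of the 3 comparisons by edgeR, while 5 had an unadjusted p under 0.05 in DOP vs. C, 5 in WCOC vs. C and 7 in WCOC vs. DOP. Over all tested genes, 17.6%, 26.4% and 28.1% had such a p in these comparisons.

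**Figure D4:**
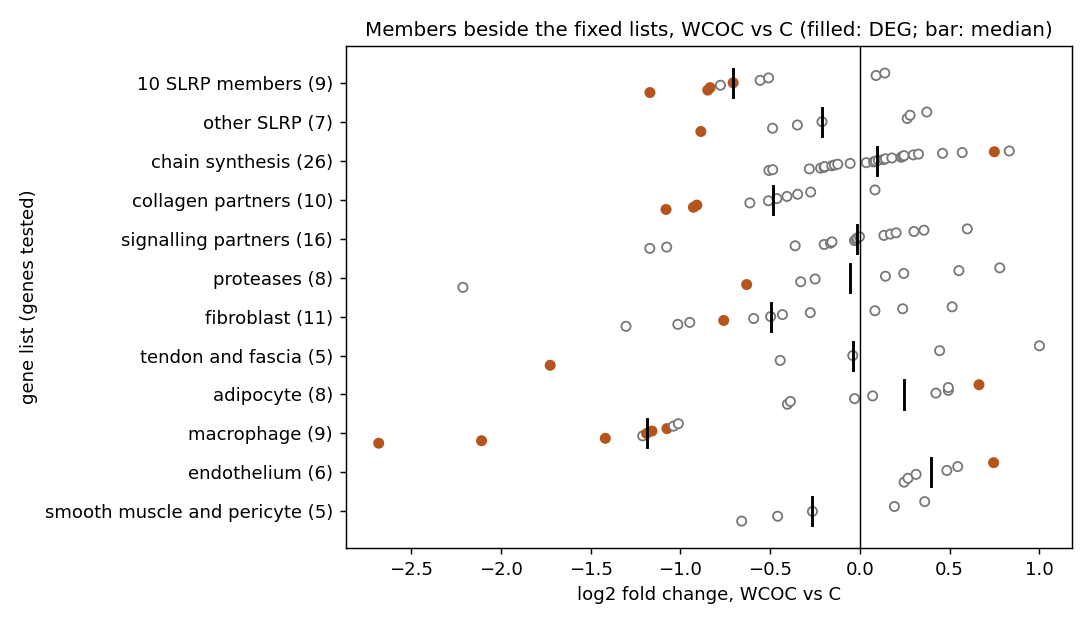
Log2 fold change in WCOC vs. C (horizontal axis) of the members and of the genes of 11 other lists (rows, with the number tested); each point is a gene, filled points are DEGs and the black bar is the list's median. The macrophage list has the lowest median drawn (-1.19), followed by the members (-0.71), the fibroblast list (-0.50), the collagen list (-0.49), smooth muscle and pericyte (-0.26) and other proteoglycans (-0.21), while those of proteases (-0.05), tendon and fascia (-0.04) and signalling partners (-0.02) lie near 0 and those of chain synthesis (0.10), adipocyte (0.25) and endothelium (0.40) lie above it.

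Among the markers of the cells in the tissue, 6 of 9 macrophage markers and at most 1 of each other list passed in WCOC vs. C, against 6.25% of all tested genes. Of 11 tested fibroblast markers, DPT (dermatopontin) fell (log2FC -0.76), 8 of 11 values were negative, the median was -0.50, and the summed level was 1664 to 2294 CPM in C and 1517 to 2020 CPM in WCOC. Of 9 macrophage markers, 6 fell, led by the scavenger receptor MSR1 (-2.68), the lysosomal protein CD68 (-2.11) and the integrin chain ITGAM (-1.42), with MRC1 (-1.19), CD163 (-1.16) and AIF1 (-1.08) among them. All 9 values were negative, and the summed level was 246 to 740 CPM in C against 121 to 294 CPM in WCOC. Of the other lists, TNC fell (-1.73) among 5 tested tendon and fascia genes, ADIPOQ rose (0.66) among 8 adipocyte genes, CLDN5 rose (0.75) among 6 endothelial genes and 0 of 5 smooth muscle and pericyte genes passed. In the same comparison 0 of 4 tested muscle genes and 0 of 3 tested epidermal genes passed. Over all lists, 1 epidermal gene was at 0 in all C libraries, 1 in all DOP libraries, and 1 collagen gene in all WCOC libraries. The part of these cells in the fall of LUM was not tested. The fits with the fibroblast or macrophage list as a term cannot show it. Those terms are means of genes from the same libraries, and most genes of both lists were themselves lower in WCOC. Over all genes, DEGs in WCOC vs. C went from 933 to 217 with the fibroblast term and to 36 with the macrophage term.

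In DOP vs. C, MSR1 fell (-3.18) and was the 1 of 9 macrophage markers called, and 0 of 11 fibroblast markers were called. Of all tested genes, 0.764% were called in that comparison. In WCOC vs. DOP, where 7.76% of all tested genes were called, PDGFRA (-0.58), a receptor of fibroblasts and their precursors, and CD163 (-1.30) fell. COL5A2 (-0.70) fell too, while MFAP4 (1.23), a microfibril protein of fibroblasts, and LEP (1.08) rose. These were 2 of 11 fibroblast, 1 of 9 macrophage, 1 of 10 collagen and 1 of 8 adipocyte genes. There the muscle genes TNNC2 (-5.87) and TNNT3 (-5.48) were lower and the epidermal genes KRT1 (5.24) and DSG1 (5.59) higher in WCOC. The part of muscle or epidermis in the members' values was not tested, and no fit held a term for the epidermal genes. With the muscle list as a term, LUM, ASPN and FMOD were called in WCOC vs. DOP and PRELP was not (edgeR adjusted p = 0.115).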

How the data were processed

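RNA of backfat from 15 pigs was sequenced by the authors, who mapped untrimmed read pairs to Sscrofa11.1 with HISAT2, set for a strand-specific protocol, and then used HTSeq to obtain counts for each Ensembl gene. The deposited values are raw counts, 1 file per pig, neither normalized nor pooled. Which strand option HTSeq was run with, and on which annotation release, is not given in the sources used here. Of the read pairs of a library, 23.4% to 32.8% were not on genes and stayed out of library sizes and tests. Gene symbols came from a reference table (14864 matched).

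The statistical analysis used edgeR 4.0.16 (R 4.3.3): filterByExpr (14918 genes), TMM scaling, and a quasi-likelihood fit with 1 mean per diet to all 15 libraries. DEGs had a log2FC of 0.58 or more in size together with an adjusted p under 0.05. CPM and log2 CPM (prior count 1) were computed here and were not part of the deposited files. DESeq2 1.42.0, limma-voom (limma 3.58.1), other scalings and filters, left-out libraries, the replicate number as a block, and terms for the flow cell and for the mean of marker lists were alternatives; the macrophage term and lane 2 of run A were chosen after seeing the data. The 10 members, the lists of other family genes, chain synthesis, collagens, growth factors and receptors, and proteases, and the lists of markers of fibroblasts, tendon and fascia, adipocytes, skeletal muscle, macrophages, epidermis, endothelium, and smooth muscle and pericytes were chosen with earlier results of these data known. Genes named are the members, the DEGs of these lists (at most 6 per list and comparison) and the 5 genes most like KERA. Ratios of neighbours and their choice came after seeing the data. Intervals are 95% and use the fit's own degrees of freedom. P-values measure the spread between the pigs of 1 pen per diet. The workflow was tested on simulated data. Permutation tests were run with scipy 1.17.1 and numpy 2.4.6 in Python 3.11.15, and figures drawn with matplotlib 3.10.9.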

Additional observations from a re-analysis of the deposited data

Results flagged for a closer look

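OGN (osteoglycin) in WCOC replicate 2 stood at 349 CPM, far from the other 4 WCOC pigs, the nearest of which was at 276 CPM. It was the only 1 of 27 groups of 5 pigs (9 members in 3 diets) with such a gap, and chance alone sets about 1 in 20 groups apart.

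The effects of the olive diets, each against the same control pigs, differed for 4 members, by the test of the difference itself in edgeR: LUM (-1.06), FMOD (-0.90), ASPN (-1.08) and PRELP (-0.64), each given as the log2FC in WCOC minus that in DOP. WCOC and DOP libraries were sequenced on different flow cells, so the diets and the flow cells cannot be told apart here. With the flow cell as a term, the value for LUM was -0.93 and did not pass (edgeR adjusted p = 0.410).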

How the results depend on the processing

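Other scalings, filters, DESeq2, limma-voom and the robust fit called 3 or 4 members in WCOC vs. C and WCOC vs. DOP and 0 in DOP vs. C. In WCOC vs. C the count was 1 with the replicate block, the flow cell term, the fibroblast term or run A alone, 2 with the tendon term, and 0 with the macrophage term or lane 2 alone. In WCOC vs. DOP it was 2 with the block, the fibroblast, tendon or macrophage term or only those diets, and 0 with the flow cell term. Leaving out 1 of the 15 libraries gave 1 to 4 members in WCOC vs. C, 2 to 4 in WCOC vs. DOP and 0 in DOP vs. C. Over all genes, DEGs in DOP vs. C went from 114 to 495 in DESeq2, 19 in limma-voom, 6 with the fibroblast term, 5 with the macrophage term, 43 with the muscle term, 2 with only those diets and 0 with the block. They went to 0 without C replicate 3 or 5 or DOP replicate 2 or 4, to 1 without DOP replicate 5, 4 without DOP replicate 3, 46 without C replicate 4, 54 or 59 without WCOC replicate 3 or 5, and 200 without C replicate 1, so the share of DEGs given as background in DOP vs. C depends on single libraries. In WCOC vs. C they went from 933 to 473 with the block, 217 with the fibroblast term, 568 with the tendon term, 486 in run A alone, 36 with the macrophage term, 34 in lane 2 alone, and 532, 468 or 596 without C replicate 3 or WCOC replicate 1 or 4. In WCOC vs. DOP they went from 1158 to 561 with the block, 445 with the muscle term, 1 with the flow cell term, and 731, 699, 639 or 700 without DOP replicate 2 or 5 or WCOC replicate 1 or 4. Between diets, 3 of 15 pairs of pigs with the same number had an r over 0.1, against 21 of 60 pairs with different numbers. The median r was -0.099 and 0.016. Whether pigs with the same number share anything else was not tested further.

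Relations with KERA that passed on Pearson's r numbered 7 of 8, 2 in run A and 0 without the 2 farthest libraries. Of 801 member values under alternatives, 683 kept direction and side of the threshold, 81 lost their call and 37 changed sign, none of them a DEG. In DOP vs. C these were KERA with the macrophage term (0.037), LUM with the fibroblast (0.12) and macrophage (0.31) terms, BGN (0.17 and 0.25) and PRELP (0.13 and 0.23) with the same terms, and FMOD (-0.075) and OMD (-0.0043) with the flow cell term. Without 1 library BGN ran from -0.20 to 0.055, FMOD from -0.12 to 0.19 and PRELP from -0.19 to 0.043. In WCOC vs. C, KERA was 0.013 with the macrophage term, DCN 0.050 with the fibroblast term and 0.046 with the macrophage term, and OMD -0.087 in lane 2 alone and -0.0099 to 0.18 without 1 library. In WCOC vs. DOP, KERA was 0.36 with the flow cell term and 0.014 with the fibroblast term. DCN was 0.12 with the fibroblast term, 0.075 with the macrophage term and -0.31 to 0.018 without 1 library, and OGN was 0.0072 with the macrophage term. OMD was 0.13 (flow cell), 0.078 (fibroblast), 0.0059 (tendon), 0.12 (macrophage) and -0.19 to 0.038 without 1 library. The cause was not tested. KERA had at least 286 counts in a library, so counting error was small beside the spread between pigs, while EPYC, with at most 5, could not be compared.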
